A study of Mus musculus with 4 samples.

Results

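The immunoglobulin heavy V segments (Ighv) were followed across 2 libraries of mouse pancreas leukocytes. Every feature whose symbol starts with Ighv was taken, which gave 185 of the 31053 features. In B cells and plasma cells each barcode was assigned the Ighv segment with the most unique molecular identifiers (UMIs, the tags that count single RNA molecules), and barcodes with a tie were left out. A barcode counted as a B cell with at least 2 UMIs of Cd79a and Ms4a1 together, and was put under the plasma rule with at least 20 UMIs of Jchain, Mzb1, Xbp1 and Derl3 together. This gave 927 B cells and 25 cells under the plasma rule in the control library, and 1333 and 41 in the CD4-Cre library.

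Both pancreas libraries came from pre-diabetic females aged 12 weeks, and cells carrying CD45, the common leukocyte marker, were sorted by flow cytometry. The control animals were Ocabfl/fl, with Ocab alleles flanked by loxP sites, and the others were Ocabfl/fl.CD4-Cre, with the same floxed alleles plus Cre recombinase driven by the Cd4 promoter. Each library pooled 4 mice, so there was 1 library per genotype and no spread between animals could be measured. A further library pair, of CD3-selected cells from the pancreatic lymph nodes of females aged 8 weeks, 5 mice each, held 45 and 0 B cells and is used here only as background. Differences given below compare libraries, not conditions, and every interval is a 95% interval that covers counting error only.

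A heavy chain variable region is assembled in the developing B cell by V(D)J recombination, which joins 1 Ighv segment to a D and a J segment, so a mature B cell normally transcribes 1 productive segment. Segments of one family share most of their sequence. After activation the joined segment can be mutated and moved to another constant region (Ighm, Igha or the Ighg genes). Ocab, whose current symbol is Pou2af1, encodes a coactivator that binds with the factors Pou2f1 and Pou2f2 at the octamer motif, a sequence found in immunoglobulin promoters.

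All 185 features lay on chromosome 12 between positions 113572927 and 116010093 (GRCm38, the build also called mm10), 183 of them on the minus strand. GENCODE M21 annotates 113 as functional V genes, 70 as pseudogenes and 2 as another class of V gene. They fell into 16 families, and the Ighv1 family alone held 53 of the 113 functional segments (46.9%). The sequences of 7 segments on which the results turn are given first. Each run is the last 294 bases of the V exon, the exonic part that encodes most of the variable domain, 5′ to 3′ as transcribed from the minus strand, from GENCODE M21.

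Ighv3-6 (chr12:114288152-114288445) led in the most B cells of either library, Ighv1-26 (chr12:114788372-114788665) was next, Ighv1-42 (chr12:114937113-114937406) led 3 of the 4 IgM secretory cells of the CD4-Cre library, and Ighv11-2 (chr12:114048241-114048534) and Ighv12-3 (chr12:114366521-114366814) are segments known from B-1 cells. Capitals mark the last in-frame cysteine codon, after which the third complementarity-determining region begins.
Ighv3-6: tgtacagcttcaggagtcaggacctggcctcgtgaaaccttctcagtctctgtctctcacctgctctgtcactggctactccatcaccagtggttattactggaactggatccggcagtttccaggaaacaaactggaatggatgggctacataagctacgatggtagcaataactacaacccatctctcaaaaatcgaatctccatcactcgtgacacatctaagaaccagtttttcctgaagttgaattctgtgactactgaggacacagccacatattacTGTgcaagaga
Ighv1-26: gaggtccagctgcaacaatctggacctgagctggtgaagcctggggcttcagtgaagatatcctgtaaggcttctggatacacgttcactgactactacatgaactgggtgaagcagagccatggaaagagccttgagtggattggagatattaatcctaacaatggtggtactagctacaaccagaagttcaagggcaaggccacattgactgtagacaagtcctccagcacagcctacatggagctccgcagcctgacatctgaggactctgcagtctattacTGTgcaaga
Ighv1-42: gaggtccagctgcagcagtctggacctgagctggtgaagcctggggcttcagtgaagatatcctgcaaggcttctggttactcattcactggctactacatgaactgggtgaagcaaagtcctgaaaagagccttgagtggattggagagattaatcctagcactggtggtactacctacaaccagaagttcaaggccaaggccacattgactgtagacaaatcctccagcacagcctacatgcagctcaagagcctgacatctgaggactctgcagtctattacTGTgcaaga
Ighv11-2: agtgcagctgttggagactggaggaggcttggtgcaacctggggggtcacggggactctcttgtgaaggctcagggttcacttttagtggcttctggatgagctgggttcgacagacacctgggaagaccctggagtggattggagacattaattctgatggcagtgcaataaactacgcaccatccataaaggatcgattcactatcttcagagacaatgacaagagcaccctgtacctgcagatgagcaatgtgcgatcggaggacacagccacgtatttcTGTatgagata
Ighv12-3: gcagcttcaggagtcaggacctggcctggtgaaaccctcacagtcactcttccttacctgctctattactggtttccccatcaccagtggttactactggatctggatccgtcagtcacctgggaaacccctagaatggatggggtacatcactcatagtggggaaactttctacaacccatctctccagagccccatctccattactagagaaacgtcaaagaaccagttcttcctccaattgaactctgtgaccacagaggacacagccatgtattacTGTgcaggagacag

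Ighv1-19 (chr12:114708648-114708941) and Ighv1-7 (chr12:114538495-114538788) were found together in a group of CD4-Cre cells described further on. Capitals mark the 49 of 294 bases at which these reference sequences differ from each other, which is an identity of 83.3%.
Ighv1-19: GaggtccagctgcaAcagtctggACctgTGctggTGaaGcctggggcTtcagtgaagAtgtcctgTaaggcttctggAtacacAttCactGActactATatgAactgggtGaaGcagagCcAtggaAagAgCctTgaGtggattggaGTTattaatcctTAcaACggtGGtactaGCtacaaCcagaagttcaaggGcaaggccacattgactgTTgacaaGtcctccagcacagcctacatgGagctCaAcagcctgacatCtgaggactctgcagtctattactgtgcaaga
Ighv1-7: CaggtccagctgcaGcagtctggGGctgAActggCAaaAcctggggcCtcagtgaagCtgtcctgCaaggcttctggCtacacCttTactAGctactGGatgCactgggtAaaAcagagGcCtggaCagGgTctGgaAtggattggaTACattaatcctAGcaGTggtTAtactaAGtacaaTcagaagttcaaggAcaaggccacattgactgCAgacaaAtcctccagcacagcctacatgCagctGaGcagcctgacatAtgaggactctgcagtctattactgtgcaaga

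Over all 113 functional segments, the median identity of a segment to its nearest relative was 95.2% of these 294 bases. For 14 segments another one was at least 98% identical, and Ighv1-62-2 and Ighv1-71 had the same letters. How reads from such segments were shared out is not given in the sources used here, so their counts are uncertain. The 14 held 8.53% of assigned B cells in the control and 9.67% in the CD4-Cre library. Ighv11-2 was 98.6% identical to Ighv11-1 and belongs to them.

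The pancreas libraries listed 4524 and 6963 barcodes with 20807342 and 32798133 UMIs. After filtering, 4004 and 6238 barcodes were kept, with medians of 3602.5 and 3620 UMIs, so depth per cell was close. The libraries shared 46 barcode sequences, of which 2 were B or plasma cells in both and 0 had the same segment. In T cells the targeted gene Pou2af1 had 48 UMIs (4.86 CPM, the count scaled by the total UMIs of the cell class) in the control and 10 UMIs (0.563 CPM) in the CD4-Cre library. In B cells Pou2af1 stood at 214.2 and 215.2 CPM, and its partner Pou2f2 at 424.9 and 420.1 CPM.

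Ighv RNA was close to a B-lineage mark in these libraries. An Ighv UMI was found in 837 of 927 control B cells (90.3%, exact Clopper-Pearson interval 88.2 to 92.1%) and in 1270 of 1333 CD4-Cre B cells (95.3%, 94.0 to 96.3%). In T cells, which should lack these transcripts, the shares were 1.06% and 1.99% at a median of 3473 and 3575 UMIs per cell, against 3575 and 3450 in B cells. In the T cells of the CD4-Cre library, 30 of the 83 Ighv UMIs were Ighv9-3, the segment with 33.8% of all Ighv UMIs of that library's B and plasma cells. Ighv1-18 gave 21 of the 83, with 3.35% of those Ighv UMIs. Ighm RNA in T cells was far more common, and its source was not tested: an Ighm UMI was present in 44.8% and 48.1% of T cells, with 69.2 and 46.1 Ighm UMIs for each Ighv UMI there, against 1.02 and 0.557 in B cells. In the lymph node CD4-Cre library, with 0 B cells, 61.2% of T cells had an Ighm UMI. An IgM call on few UMIs is therefore less secure than the call of a segment.

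The edges of the cell rules were examined once. With a Cd79a and Ms4a1 sum of 1, just outside the B rule, 54 and 71 cells had an Ighv UMI in 1.85% and 4.22%. With a sum of 2, just inside, there were 3 and 7 cells. At a sum of 15 to 19, just under the plasma rule, 6 and 14 cells had medians of 20 and 21 Ighv UMIs, and at 20 to 24 the 9 and 7 cells had medians of 28 and 5.

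Most functional segments were in use. Of the 113, 94 had a UMI in the B or plasma cells of the control library and 100 in those of the CD4-Cre library, and 86 and 90 led in at least 1 B cell. The pseudogenes led in 2 and 5 B cells. There were 11 functional segments with 0 UMIs in both classes of both libraries: Ighv2-7, Ighv7-2, Ighv16-1, Ighv6-4, Ighv6-5, Ighv6-7, Ighv1-16, Ighv1-24, Ighv1-56, Ighv1-62-1 and Ighv8-13. The labels used here name no mouse strain, and alleles that differ from the reference could be counted to other segments, so 0 UMIs does not show that a segment was unused. A segment could be assigned in 823 and 1256 B cells, with 14 ties in each library.

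Ighv3-6, whose sequence stands above, was the most frequent segment of B cells in both libraries. It led in 56 control cells (6.80%, 5.18 to 8.74%) and in 70 CD4-Cre cells (5.57%, 4.37 to 6.99%). Ighv1-26 followed with 44 cells (5.35%) and 57 cells (4.54%), then Ighv9-3 with 37 (4.50%) and 49 (3.90%) and Ighv2-2 with 37 (4.50%) and 42 (3.34%). The 10 most used segments of each library together held 36.0% of control and 32.7% of CD4-Cre B cells, so the repertoire was spread widely. Across the 113 functional segments the shares of both libraries had a Pearson r of 0.920 and a Spearman rho of 0.906, given as a description because the segments share libraries and depth.

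**Figure D1:**
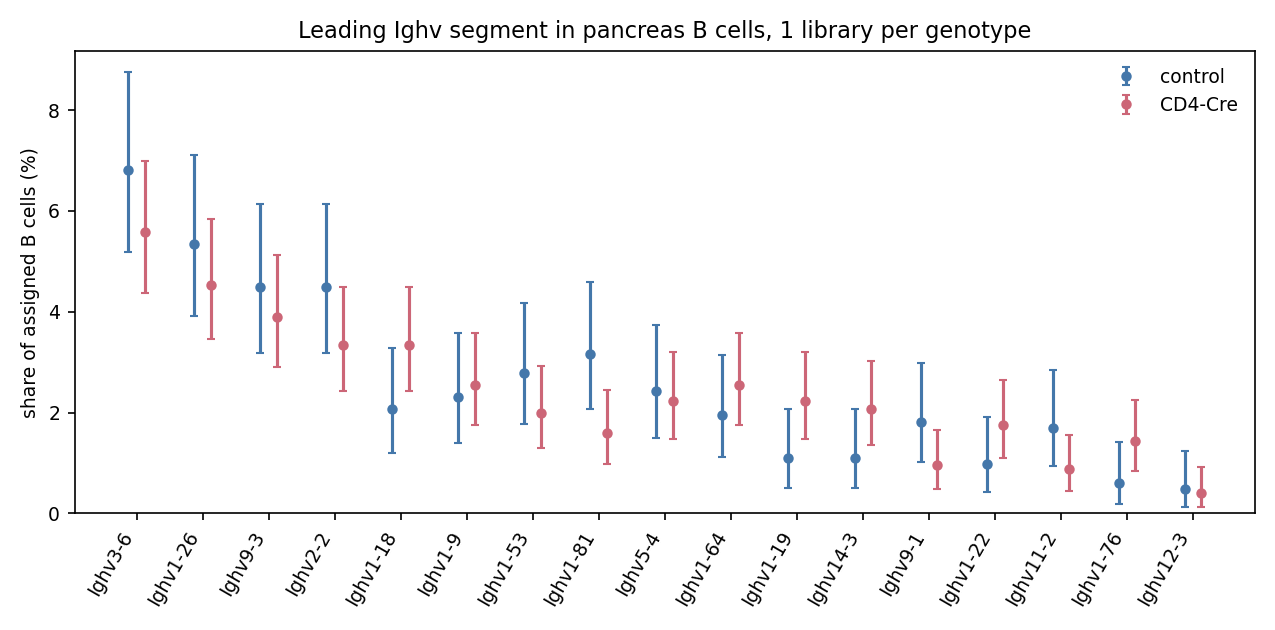
Share of assigned B cells led by each named Ighv segment (y axis, percent) in the control (823 cells) and CD4-Cre (1256 cells) pancreas libraries. Points are shares and bars exact 95% intervals of counting error. Ighv3-6 is highest in both libraries, at 6.80% and 5.57%, and the bars of both libraries overlap for every segment shown.

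Between the libraries single segments differed by little. Ighv1-81 led in 26 control B cells (3.16%) and 20 CD4-Cre B cells (1.59%), a difference of -1.57 percentage points (Newcombe interval -3.10 to -0.26). The interval included 0 with all listed barcodes (-1.04 points, -2.49 to 0.21) and with doublets not removed (-1.13 points, -2.58 to 0.14). Beside it, Ighv1-20 (0.607% and 0.080%) and Ighv1-84 (0.486% and 0.0%) were the only ones of the 185 whose interval did not include 0. Both rest on at most 5 cells, and this count of 3 is itself chosen from 185 intervals. Among the segments with more CD4-Cre than control cells, Ighv1-18 led in 17 and 42 cells, Ighv1-19 in 9 and 28, Ighv14-3 in 9 and 26, Ighv1-76 in 5 and 18 and Ighv1-22 in 8 and 22. Their differences were 1.28, 1.14, 0.98, 0.83 and 0.78 points in that order, and each interval included 0. Ighv3-6 itself differed by -1.23 points (-3.47 to 0.85).

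By family, Ighv1 segments led in 395 control B cells (48.0%, 44.5 to 51.5%) and 666 CD4-Cre B cells (53.0%, 50.2 to 55.8%). The difference was 5.03 points, with an interval of 0.64 to 9.40. That interval included 0 when a lead of at least 3 UMIs was required (4.75 points, -0.19 to 9.63). By summed UMIs in place of cells the difference was 1.11 points. Ighv5 led in 9.96% and 9.55%, Ighv2 in 9.48% and 8.36%, Ighv3 in 7.78% and 7.01%, Ighv9 in 7.29% and 5.81% and Ighv14 in 4.13% and 4.54%. For all 15 families other than Ighv1 the interval of the difference included 0, and Ighv16 led in no cell. The Ighv1 share of functional segments, 46.9%, lay inside the interval of the control share and below that of the CD4-Cre share.

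**Figure D2:**
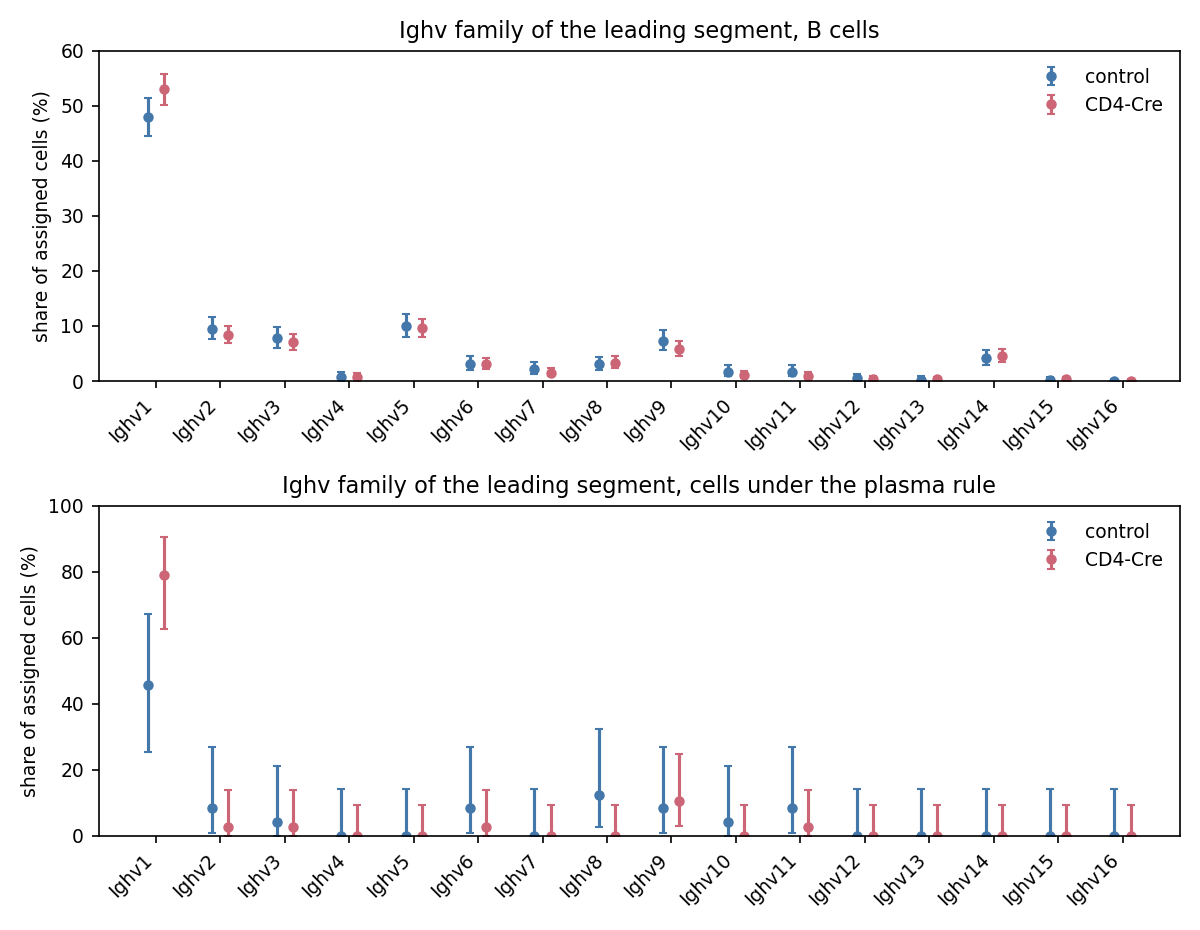
Share of assigned cells (y axis, percent) by Ighv family of the leading segment, for B cells (top, 823 control and 1256 CD4-Cre cells) and cells under the plasma rule (bottom, 24 and 38 cells). Bars are exact 95% intervals of counting error. In B cells Ighv1 stands at 48.0% and 53.0%, and the bars of both libraries overlap for every family. Under the plasma rule Ighv1 stands at 45.8% and 78.9%.

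Along the locus, functional segments were cut into 4 stretches of 28 or 29 in order of position. From the constant-region end outwards, these held 26.2%, 26.7%, 25.2% and 21.9% of control B cells. The CD4-Cre library had 24.5%, 23.4%, 27.3% and 24.8%. No stretch held more than 27.3% of a library's B cells.

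The libraries also differed in the number of Ighv UMIs counted per B cell. A control B cell had a median of 5 Ighv UMIs (quartiles 2 and 8) and a CD4-Cre B cell a median of 7 (3 and 11). As summed levels these were 1510.3 CPM (exact Poisson interval 1472.3 to 1549 CPM) and 2073.7 CPM (2035.9 to 2112 CPM). Ighm, the first constant region to be transcribed with a V segment, stood at 1536 and 1154.3 CPM, lower in the CD4-Cre library. Ighv and Ighm UMIs thus differed in opposite directions, and both are parts of heavy chain RNA. Whether heavy chain RNA per B cell differed as a whole was not tested. The light chain V segments had medians of 27 and 31 UMIs per B cell.

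The higher Ighv count ran across segments. Of 30 segments with at least 10 B cells in each library, the median UMIs of the leading segment per cell were higher in the CD4-Cre library for 28, equal for Ighv6-6 (8 and 8) and lower for Ighv1-18 (3 and 2). Ighv3-6 had medians of 6 and 8 UMIs per cell, Ighv1-26 of 3 and 4, Ighv9-3 of 6 and 10 and Ighv2-5 of 8 and 20.5. The segments kept a similar order in both libraries, with a Pearson r of 0.844 on the log2 medians and a Spearman rho of 0.905. The median Ighm count of the same cells was lower in the CD4-Cre library for 26 of the 30 and higher for 3. Which of the animals, the preparation or the genotype this goes with cannot be told apart with 1 library each.

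**Figure D3:**
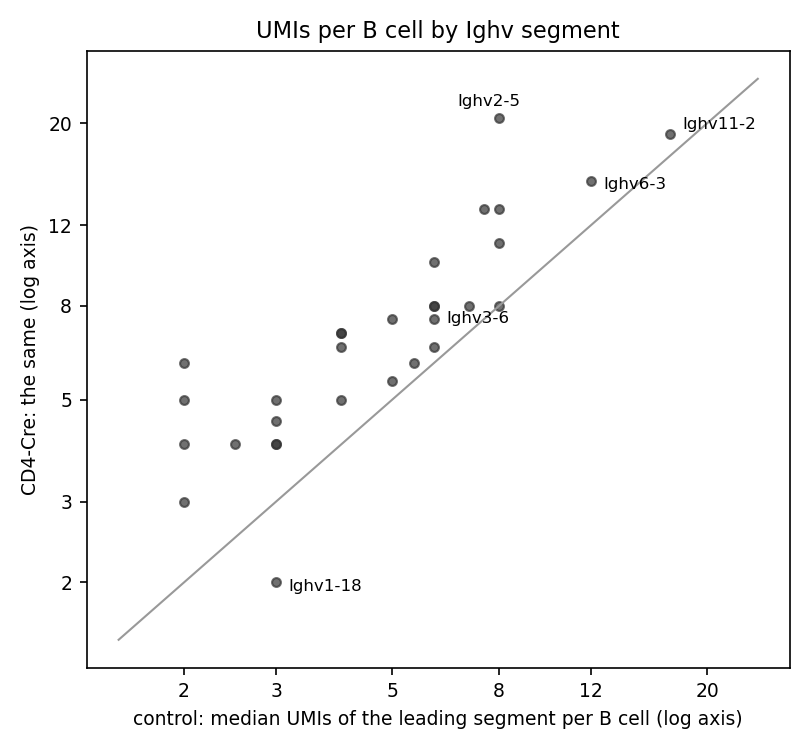
Median UMIs of the leading segment per B cell in the control library (x axis, log scale) and the CD4-Cre library (y axis, log scale), 1 point for each of 30 segments with at least 10 B cells in both. The line marks equal values. Of these, 28 points lie above the line, Ighv1-18 lies below it, and the highest medians are those of Ighv11-2 in the control library (17) and Ighv2-5 in the CD4-Cre library (20.5).

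The segments were then set beside all genes. In summed B cell counts, 86 of the 185 segments had the minimum of 20 UMIs over both libraries. Of them 27 (31.4%) were at least 2-fold higher in the CD4-Cre library, against 2.19% of the 10241 genes with that minimum. At least 2-fold lower were 4 (4.65%: Ighv5-15, Ighv1-20, Ighv1-66 and Ighv1-84), against 0.967% of genes. Even the most used segment led in only 56 control and 70 CD4-Cre B cells. The sum of a segment thus follows how many cells carried it as well as the UMIs per cell. How much of the excess over all genes came from cell numbers was not tested. As log2 of CD4-Cre over control CPM, the median was 0.60 for the segments, 0.07 for all genes and 0.15 for the 88 light chain V segments. Above 0 lay 69 of the 86 segments, and 17 lay below.

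The highest ratios rested on few control UMIs: Ighv1-36 had 1 UMI in the control and 47 in the CD4-Cre library, Ighv1-49 had 2 and 66, and Ighv1-43 had 1 and 19. Among segments with more UMIs, chosen as examples after their values were seen, Ighv1-76 had 22 UMIs in the control and 149 in the CD4-Cre library, a log2 ratio of 2.28. Ighv2-3 had 55 and 293 UMIs (log2 ratio 1.94), Ighv8-8 47 and 200 (1.61) and Ighv1-19 62 and 261 (1.60). Of the 823 and 1256 assigned B cells, Ighv1-76 led in 5 and 18, Ighv8-8 in 8 and 18 and Ighv1-19 in 9 and 28. A single CD4-Cre cell held 64 UMIs of Ighv1-19. With a minimum of 100 UMIs over both libraries, 13 segments were past 2-fold upwards and 1 downwards. The most used segment, Ighv3-6, stood at 105.5 and 132.6 CPM, a log2 ratio of 0.33.

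Among B cells the most repeated heavy and light combination of the control library was Ighv11-2 with Igkv14-126, a pairing known from B-1 cells that bind phosphatidylcholine. Ighv11-2 led in 14 control and 11 CD4-Cre B cells, all of them IgM. It was paired with Igkv14-126 in 11 of 808 control B cells with both chains assigned (1.36%) and in 11 of 1239 CD4-Cre cells (0.888%). The product of both segments' shares would have given 0.030% and 0.013%. A further 2 control cells and 1 CD4-Cre cell under the plasma rule carried the same pair. Ighv11-2 had medians of 17 and 19 UMIs per leading cell, in cells with medians of 10016 and 10402 UMIs in all, against medians of 5 and 7 Ighv UMIs at 3575 and 3450 UMIs over all B cells.

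These 22 B cells differed from other B cells in the listed subset markers of both libraries. Fcer2a, the low-affinity IgE receptor of follicular B cells, had 0 UMIs in them, against 381.2 and 448.2 CPM in other B cells. Ighd, the second constant region of naive B cells, stood at 35.5 and 24.8 CPM against 450.4 and 341.2 CPM. The transcription factor genes Zbtb32 (248.6 and 281.5 CPM, against 31.5 and 37.4 CPM) and Bhlhe41 (106.5 and 74.5, against 22.7 and 22.1 CPM) were higher in them. So was Plac8, at 1109.6 and 1175.7 CPM against 434.8 and 407.0 CPM. The follicular list of 5 genes summed to 159.8 and 207.0 CPM against 1474.7 and 1432.5 CPM. The B-1 and marginal zone list of 9 genes summed to 1739.9 and 1747.1 CPM against 711.4 and 698.7 CPM. Plac8 alone gave most of each of these last sums. The same list stood at 519.6 and 512.1 CPM in T cells and at 551.0 and 553.5 CPM in myeloid cells, so it is not particular to B cells. Cxcr5 of the follicular list was close in the CD4-Cre library (157.3 against 164.1 CPM), and Cr2, a marginal zone marker, was lower in both (35.5 and 41.4 against 130.9 and 133.9 CPM).

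**Figure D4:**
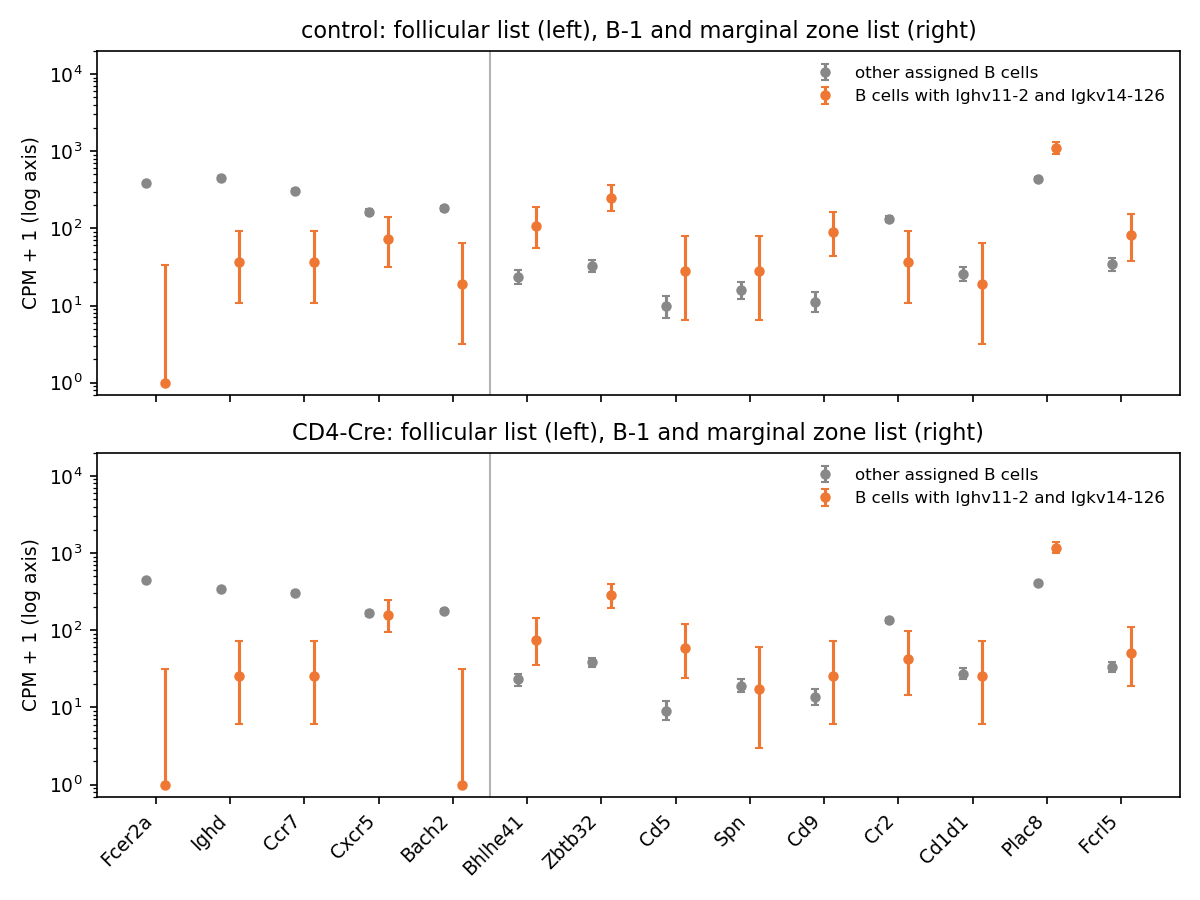
Levels (CPM + 1, log axis) of follicular and of B-1 and marginal zone marker genes in B cells with Ighv11-2 and Igkv14-126 (11 cells per library) and in other assigned B cells, control above and CD4-Cre below. Bars are exact Poisson 95% intervals. Fcer2a is at 0 in these cells in both libraries, and Zbtb32 and Plac8 are above the other B cells.

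RNA of other cell types moved with this group. The 11 cells of each library had medians of 10285 and 10402 UMIs, and 6 of the 11 in each had at least 2 UMIs of Cd3 genes, against 3.45% and 2.73% of other assigned B cells. The T cell list of 9 genes summed to 372.8 and 811.4 CPM against 146 and 171.1 CPM, and the exocrine list of 5 to 1047.5 and 554.8 CPM against 178.3 and 307.3 CPM. In the 5 cells of each library with fewer Cd3 UMIs, Fcer2a was at 0, Zbtb32 stood at 239.6 and 224.6 CPM and the B-1 and marginal zone list at 1529.6 and 1980.2 CPM, and the T cell list stood at 55.3 and 0.0 CPM. The exocrine list stood at 552.9 and 0.0 CPM in these cells. The part of RNA from other cells in the marker levels was not tested.

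Ighv12-3, the other segment known from phosphatidylcholine-binding cells, led in 4 control and 5 CD4-Cre B cells, all IgM. Its leading counts had medians of 43 UMIs (26 to 72) and 46 UMIs (18 to 54), above the highest median of 20.5 among the 30 segments with more cells, and these cells too were deep, with medians of 10751 and 9241 UMIs in all. The light partner was Igkv4-91 in 2 of the control cells and Igkv10-96 in 4 of the CD4-Cre cells. Fcer2a and Ighd were at 0 in these cells of both libraries. None of them had 2 or more Cd3 UMIs, and the B-1 and marginal zone list summed to 1909.8 and 1543.5 CPM.

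Among the most frequent other pairs of B cells, Ighv3-6 with Igkv12-46 was seen in 8 control and 12 CD4-Cre cells, Ighv9-3 with Igkv1-135 in 10 CD4-Cre cells, and Ighv1-26 and Ighv2-2 with Igkv12-46 in 8 CD4-Cre cells each. Igkv12-46 is the light segment with the most cells in both libraries, and the first of these pairs stood at 0.990% and 0.969%, against 0.712% and 0.589% from the product of shares. Ighv9-3 with Igkv1-135 stood at 0.807% against 0.246%. Some rarer pairs, named after their values were seen, lay further above the product: Ighv2-6 with Igkv2-137 in 5 CD4-Cre cells (0.404% against 0.0130%) and Ighv6-6 with Igkv8-24 in 3 cells of each library (0.371% against 0.0236% in the control, 0.242% against 0.0274% in the CD4-Cre library). For any pair of B cells the chance of carrying the same heavy and light pair was 0.0902% and 0.0841%, against 0.0701% and 0.0632% from the separate shares. The number of segments, drawn to 823 cells in both, was 88 in the control and 89.2 in the CD4-Cre library. The effective number, the inverse of the share of cell pairs that match, was 46.0 and 51.1.

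A second segment was detected in 15.2% of control and 20.4% of CD4-Cre B cells. It had a single UMI in 91 of 127 and 170 of 258 of those with an assigned lead. It belonged to the family of the leading segment in 18.1% and 21.7%. Of the genes for assembling receptors, Rag1, Rag2 and Dntt had 0 UMIs in the B cells of both libraries.

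By isotype, IgM led in 78.5% of control and 73.2% of CD4-Cre B cells, a difference of -5.3 points (-8.8 to -1.7). IgD led in 10.5% and 12.8%, IgG in 2.59% and 1.58% and IgA in 0.431% and 0.675%. The isotype was tied in 7.3% and 9.5% of B cells and absent in 0.65% and 2.3%. The lower IgM share thus came with more cells left without a call. The Ighv1 family led in 47.9% and 52.9% of the IgM cells and in 48.8% and 50.6% of the IgD cells. In the few IgG cells it was 12 of 21 (57.1%, 34.0 to 78.2%) and 13 of 20 (65.0%, 40.8 to 84.6%). The intervals of the isotypes overlapped within each library. In the control, 3 of the IgG B cells carried Ighv8-8 with Igkv1-99, and so did 1 IgG cell under the plasma rule, a match noticed after the values were seen.

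The plasma rule took in cells of unlike kinds, which a Jchain count of 100 divided (a value chosen after the data were seen). Jchain encodes the chain that joins IgM and IgA into polymers. Above it were 14 control and 17 CD4-Cre cells with medians of 1737 and 2001 Ighv UMIs, and Sdc1, the plasma cell surface marker syndecan-1, in 13 of 14 and 13 of 17. Their median Ms4a1 count was 0 in both libraries, with highest counts of 11 and 6. Below it were 11 and 24 cells with medians of 26 and 8.5 Ighv UMIs, and Sdc1 in 0 and 1. Their Ms4a1 counts were 5 to 33 (median 15) and 4 to 45 (median 20), ranges that overlap those of the upper cells. The lower cells therefore carry a B cell marker and are not called plasma cells here. The upper ones are called secretory cells.

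**Figure D5:**
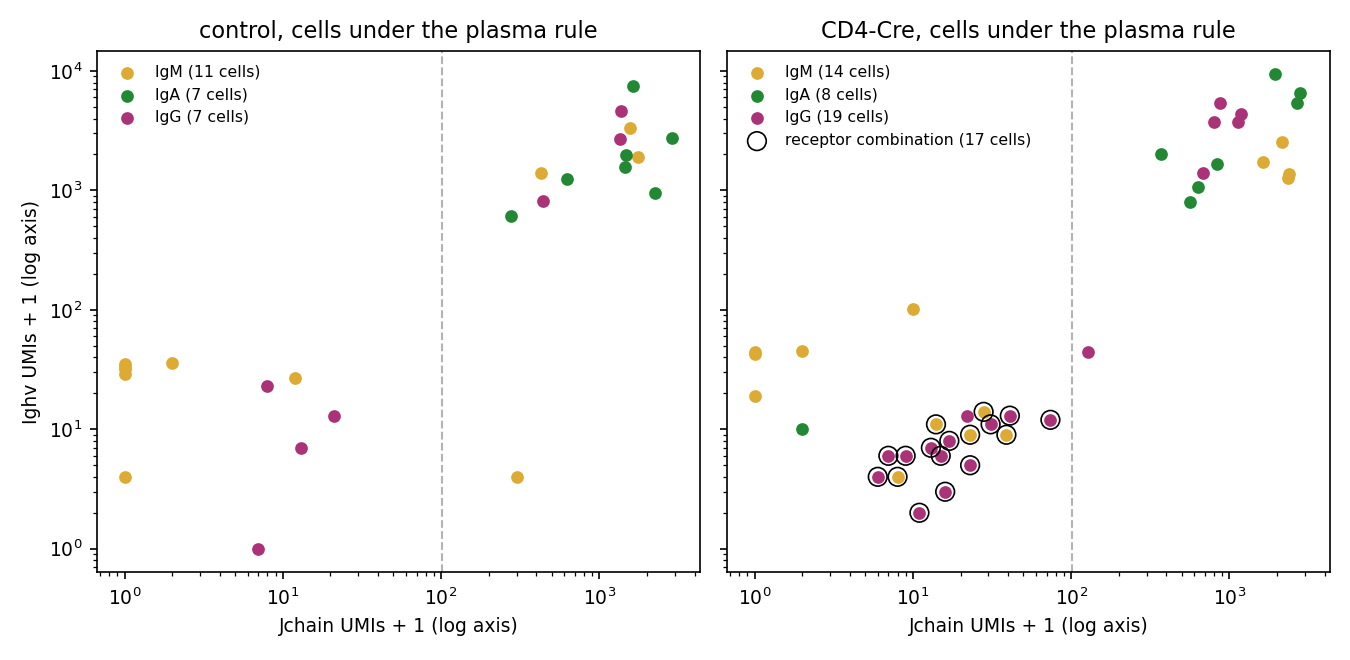
Ighv UMIs (y axis, log scale of UMIs + 1) against Jchain UMIs (x axis, log scale of UMIs + 1) for each cell under the plasma rule, 25 control (left) and 41 CD4-Cre (right), coloured by leading isotype. The dashed line is the Jchain count of 100, and circles mark the 17 cells with the Ighv1-19 or Ighv1-7 combination. Most secretory cells lie upper right, apart from a control cell with 3 and a CD4-Cre cell with 43 Ighv UMIs, and the circled cells lie at low Ighv counts.

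The secretory cells used many segments. The 14 control cells held 11 segments and the 17 CD4-Cre cells 11. IgA led in 7 and 7, IgM in 4 and 4 and IgG in 3 and 6. The highest counts were 7485 UMIs of Ighv2-9-1 in an IgA control cell and 9351 UMIs of Ighv9-3 in an IgA CD4-Cre cell. A control IgM cell with 300 Jchain UMIs had only 3 Ighv UMIs, of Ighv2-9.

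Several secretory cells of one library shared a heavy and light pair. In the control, 2 IgM cells carried Ighv1-81 with Igkv4-74, at 1909 and 3327 UMIs of the heavy segment. In the CD4-Cre library, 2 IgA cells carried Ighv9-3 with Iglv2, at 6480 and 9351 UMIs. There, 3 IgM cells carried Ighv1-42 with Igkv8-24, at 1363, 2528 and 1736 UMIs, and a lower-Jchain IgM cell carried the pair with 101. The remaining IgM secretory cell had Ighv1-26 with Igkv8-24 (1217 UMIs), so all 4 IgM secretory cells of that library had the same light segment. Ighv1-26 and Ighv1-42, both printed above, differ at 21 of 294 bases, an identity of 92.9%. The joined CDR3 sequences were not analysed here, so a shared pair does not show descent from 1 cell.

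A receptor combination was found only in the CD4-Cre library, and was singled out after its values were seen. It was Ighv1-19 or Ighv1-7 together with Igkv12-46 and Igkv4-74, in 19 cells (17 under the plasma rule, all of them below 100 Jchain UMIs, and 2 B cells) against 0 in the control. Summed over these cells, Ighv1-19 had 54 UMIs, Ighv1-7 had 63 and all other segments had 4. Together Ighv1-19 and Ighv1-7 made up 96.7% of the Ighv UMIs, given as a description since they helped define the group. Their medians were 2 and 3 UMIs per cell. Both were detected in 11 of the 19 cells. Ighv1-19 led in 8, Ighv1-7 in 7, 3 were tied and 1 was led by Ighv1-26, so the assignment by most UMIs cut the group apart. The 2 reference sequences are only 83.3% identical over the printed bases and 78.3% over the 46 leader bases. Whether 1 mutated segment or 2 segments gave these reads was not tested, since the reads are not used here.

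The UMIs of Igkv12-46 and Igkv4-74 are given as a description since these segments helped define the group. Igkv12-44 did not define it and had at least 1 UMI in each of the 19 cells. Its likeness to Igkv12-46 was not examined. Igkv12-46 had 2151 UMIs (median 98 per cell, 18 to 282), Igkv12-44 had 802 and Igkv4-74 had 738, in all 97.9% of light V UMIs. Among genes that the combination did not use, Mki67, a marker of dividing cells, was detected in 17. The transcription factor gene Mef2b was detected in all 19, at 313.3 CPM against 8.86 CPM in all B cells of the library. S1pr2, a receptor that keeps B cells in germinal centres, stood at 119.1 CPM against 2.35 CPM. The germinal-centre list of 7 genes summed to 1561.2 CPM, against 52.8 CPM in all B cells of the library. The B cell marker Ms4a1 stood at 10 to 45 UMIs. IgG led in 13 and IgM in 6. The cells had 10459 to 37253 UMIs each, and 2 had at least 2 Cd3 UMIs. No barcode pair among them differed at fewer than 8 positions.

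The families under the plasma rule were counted, and the Ighv1 share was recounted without these cells. Ighv1 segments led in 11 of 24 assigned control cells (45.8%, 25.6 to 67.2%) and 30 of 38 CD4-Cre cells (78.9%, 62.7 to 90.5%), a difference of 33.1 points (8.65 to 53.6). Without the combination the difference was 20.8 points (-6.79 to 44.5). The combination was defined by Ighv1 segments and found only in the CD4-Cre library, so leaving it out could only lower the difference. Among secretory cells, 7 of 14 and 12 of 17 (70.6%) gave 20.6 points (-12.6 to 48.9). Ighv8 led in 3 of 24 and 0 of 38, a difference of -12.5 points (-31.0 to -0.22). Ighv1-19 led in 0 and 7 cells under the rule, Ighv1-7 in 0 and 6, Ighv1-26 and Ighv1-42 in 0 and 4 each, Ighv9-3 in 1 and 4 and Ighv8-8 in 3 and 0. Drawn to 24 cells, the control had 18 segments and the CD4-Cre library 12.8. That number includes the cells of the combination and was not recounted without them. Among secretory cells alone there were 11 segments in 14 control and 11 in 17 CD4-Cre cells.

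The isotypes under the plasma rule were counted in the same way. IgG led in 7 of 25 control and 19 of 41 CD4-Cre cells, a difference of 18.3 points (-5.89 to 38.6), which was 1.17 points without the combination. Among IgG cells Ighv1 led in 1 of 6 (16.7%, 0.42 to 64.1%) in the control and 15 of 17 (88.2%, 63.6 to 98.5%) in the CD4-Cre library. Without the combination the CD4-Cre share was 71.4% (29.0 to 96.3%), again a change whose direction was fixed by the definition of the group. Among secretory IgG cells it was 33.3% (0.84 to 90.6%) and 66.7% (22.3 to 95.7%), so the intervals overlapped. Among IgM cells it led in 7 of 11 and 11 of 13, and among IgA cells in 3 of 7 and 4 of 8. The IgA cells, of which 7 in each library were secretory, contain no cell of the combination.

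Summed levels under the plasma rule reflect single cells. Of 30 segments with at least 20 UMIs, 15 were at least 2-fold higher and 15 at least 2-fold lower in the CD4-Cre library, against 11.1% and 3.91% of 5553 genes. The median log2 ratio was 0.43 for these segments and 0.22 for all genes. With edgeR TMM library sizes these medians were 0.21 and -0.0024, and the counts were again 15 and 15, against 7.26% and 6.77% of genes. Ighv9-3 had 32 and 21217 UMIs there, of which 3 CD4-Cre secretory cells gave most, and Ighv8-8 had 2704 and 0 UMIs, of which 1 control cell gave 2666. A secretory cell holds so much Ighv RNA that such a sum counts cells and not usage.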

How the data were processed

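Single-cell RNA was measured with a 10x Genomics 5′ kit in 4 libraries. The deposited values are UMI counts per gene and barcode, without normalization, per the file headers (matrix software version 3.0.0). Cell Ranger and mm10 are named per the submitters' processing notes. How reads that fit several Ighv segments, or mutated segments, were counted is not given in the sources used here.

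Barcodes with at least 500 genes and at most 10% mitochondrial UMIs were kept. Doublets were scored after the Scrublet method (scanpy 1.11.5) and removed at 0.8% per 1000 barcodes (164, 388, 75 and 341 in pancreas control, pancreas CD4-Cre, lymph node control and lymph node CD4-Cre). Cell classes follow the sums given in the report, and T cells had at least 2 Cd3 UMIs and fewer than 2 of Cd79a and Ms4a1. The isotype was the constant region with the most UMIs. Shares have exact Clopper-Pearson intervals, differences of shares Newcombe intervals and sums exact Poisson intervals, all at 95%. A count of 0 was set to a floor of 3 counts per library in a ratio. With 1 library per group no test was made, and no p-value is given. Differences past 2-fold were counted for all genes whose UMIs in both libraries summed to at least 20.

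Named were the 10 segments with the highest mean share in B cells and under the plasma rule, the 5 with the largest difference each way (at least 10 B cells or 3 plasma-rule cells in a library), Ighv11-2, Ighv12-3 and the 3 most frequent pairs. Other segments named were chosen after their values were seen. The members and lists were chosen with earlier results of these data known. Sequences, positions and annotation come from GENCODE M21 (185 of 185 identifiers matched), and identities from global alignment with Biopython 1.88. Alternatives included edgeR 4.0.16 TMM and DESeq2 1.42.0 size factors as scalings, other filters, cell rules and lead minimums. The counting of segments was tested on simulated data. Some members of the marker lists are not reported here.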

Additional observations from a re-analysis of the deposited data

Results flagged for a closer look

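The lymph node libraries entered no comparison of segments, yet lymph node CD4-Cre held 8221 UMIs of Ighv5-2 in its 3 cells under the plasma rule, against 0 in the lymph node control library. Both libraries were selected for CD3 and held 45 B cells in the control and 0 in CD4-Cre. The lymph node control library had only 1 cell under the plasma rule, with 12 Jchain UMIs and 26 Ighv UMIs. It thus held no secretory cell to compare. The Ighv5-2 UMIs of lymph node CD4-Cre lay in 2 IgG secretory cells, with 6825 and 1396 of them. Both cells had Igkv5-45 as the light segment (12471 UMIs over the plasma-rule cells). Another 8 cells had 8 Ighv5-2 UMIs in all.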

How the results depend on the processing

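No paired analysis was possible because each genotype has 1 library per tissue and no result comes from a test. Recomputing 22 results under alternatives gave 229 values. Of these, 215 stayed within the counting interval or 1.5 times the count, 14 moved and 0 reversed. Only a difference whose main interval excluded 0 could be scored as reversed, so most results could not be. The intervals under the plasma rule are wide, so staying inside them says little. Leaving out a replicate was not possible with 1 library per group. By summed UMIs in place of cells, the Ighv1-81 difference in B cells was -0.19 points, and under the plasma rule the Ighv1-19 difference was 0.10 points, the most frequent CD4-Cre segment held 40.2% and Ighv1 among CD4-Cre IgG was 51.5%. The Ighv1-19 difference was 0.0 points among cells with at least 100 Jchain UMIs and 0.0 points without the receptor combination. Both values were fixed beforehand, since all 7 cells led by Ighv1-19 belonged to the combination and had fewer than 100 Jchain UMIs. With Ighv1-19 and Ighv1-7 counted as 1 segment, it was 39.0 points, the most frequent CD4-Cre segment held 39.0% and the most frequent pair 36.6%. These 3 settings were chosen after seeing the data. In B cells at least 100 UMIs left 13 segments higher and 1 lower, of fewer tested. Under the plasma rule at least 100 UMIs left 9 higher, and at least 1 UMI in each library with no other minimum left 3 higher and 5 lower. The Ighv1 difference in B cells had an interval that included 0 with at least 80% of Ighv UMIs in the lead segment (4.09 points, -0.47 to 8.63), and that under the plasma rule with a sum of at least 50 (-6.88 to 52.0). Depth limits what B cells show: most segments led in few of the 823 and 1256 assigned cells, and 24 and 38 plasma-rule cells resolve only large differences.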

Other observations

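Ighv8-10, annotated as a pseudogene, was looked at after its values were seen. It had 0 UMIs in the B and plasma-rule cells of both pancreas libraries, among 6000 and 31542 Ighv UMIs in the control and 11467 and 52770 in the CD4-Cre library. In the control, 8 of 389 myeloid cells had 1 Ighv8-10 UMI each, out of 28 Ighv UMIs in all myeloid cells, and 2 T cells had 3. In the CD4-Cre library 2 of 351 myeloid cells had 3 UMIs. The pattern rests on few molecules and was not tested.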
